A study of Homo sapiens with 26 samples.

Results

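The sites described here are the places where FOXA1 was mapped in human fibroblasts and where no altered FOXA1 and no HNF4A was mapped. They are the rows of the FOXA1 peak list that share not a single base pair with any row of the FOXA1dbd, FOXA1nhaa, FOXA1rraa or HNF4A lists. Of 155652 FOXA1 rows, 63949 met this rule (41.1%) and are called lost, a word that here means only absent from those 4 lists. By the authors' score for each row, 15086 lost rows were strong (147 or more) and 48863 were weak. Among all strong FOXA1 rows 24.2% were lost, and among all weak rows 52.4% were. The rows were chosen by their overlaps and split by their score, so the shares describe the rule and support nothing. Another 91103 FOXA1 rows were overlapped by at least 1 FOXA1 variant and are called kept. The remaining 600 were overlapped by HNF4A alone and enter neither class.

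The study mapped binding by chromatin immunoprecipitation and sequencing (ChIP-seq) in fibroblasts of human foreskin, the established cell line BJ. Each protein was fused to HALO, a protein tag, expressed ectopically for 48 h and recovered with an antibody against the tag, so all groups share the host cells, the tag and the antibody. The groups are FOXA1, the FOXA1 variants that the labels write FOXA1dbd, FOXA1nhaa and FOXA1rraa, and HNF4A. What the variant names stand for, the vector and its promoter are not given in the sources used here. The labels name 2 ChIP libraries a construct, whereas 1 peak list a construct was analysed. There is therefore no replicate error and no p-value, and the 95% intervals below (Wilson for a share, Newcombe for a difference of shares) cover counting error over rows only. Peak lists hold no gene expression, so the fibroblast label was not checked against marker genes.

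FOXA1 is a forkhead protein, whose winged-helix domain recognises a short sequence with the consensus TGTTTAC or TATTTAC. It is known as a pioneer factor, able to engage its sequence on DNA wrapped in nucleosomes, and in liver, breast and prostate it precedes other factors at enhancers. AP-1, a dimer of FOS and JUN family proteins that binds TGANTCA, and the TEAD factors, which bind GGAATG, are widespread at active enhancers of fibroblasts. HNF4A is a nuclear receptor of hepatocytes with a different DNA-binding fold.

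The lists differ in ways that bear on what counts as lost. FOXA1nhaa has 105591 rows, FOXA1rraa 71202, HNF4A 38291 and FOXA1dbd 28831, and read depth is not given in them. In the FOXA1rraa list 23216 rows have the coordinates and the peak name of a FOXA1 row. The list labelled FOXA1rraa thus partly repeats the FOXA1 list. Among strong rows, 8481 escape the lost class through FOXA1rraa alone, and all 8481 do so through such a repeated row. Among weak rows the same holds for all 9615 that FOXA1rraa alone keeps. With the repeated rows set aside, 37.8% of strong, 62.7% of weak and 52.7% of all FOXA1 rows were lost. The main results are therefore given with and without them.

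The sequences of single lost sites given here are examples, picked by score and mostly for holding a forkhead core. The sites were taken from the 31177 lost rows (9811 strong and 21366 weak) that carry a peak name of their own, are at least 200 bp wide and have no row of another list within 1000 bp. Each sequence is the central 200 bp of a row on the plus strand of GRCh37, the build of the files (hg19), with forkhead cores in capitals. GTAAACA and GTAAATA are the cores TGTTTAC and TATTTAC read from the other strand. The first is among the 5 strong sites with the highest scores and holds no core. The next 4 are the highest-scoring strong sites with a core, after 1 at GXYLT2 whose window lies in a UTR and is not printed. The last 3 are the highest-scoring weak sites with a core. Of the 9811 strong rows from which sites were taken, 1631 (16.6%) held a core, so the printed windows are not typical of the class.
Strong, no core, near the SCLT1 start chr4:129918966-129919165: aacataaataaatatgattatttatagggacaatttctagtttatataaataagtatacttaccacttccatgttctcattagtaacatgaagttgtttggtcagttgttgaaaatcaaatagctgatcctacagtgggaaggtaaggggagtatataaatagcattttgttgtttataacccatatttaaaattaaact
Strong, SPEN intron chr1:16246908-16247107: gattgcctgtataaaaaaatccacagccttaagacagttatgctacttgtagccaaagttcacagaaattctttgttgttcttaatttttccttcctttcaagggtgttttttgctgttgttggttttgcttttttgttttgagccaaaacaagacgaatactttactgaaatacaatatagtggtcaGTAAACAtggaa
Strong, KIFAP3 intron chr1:169945515-169945714: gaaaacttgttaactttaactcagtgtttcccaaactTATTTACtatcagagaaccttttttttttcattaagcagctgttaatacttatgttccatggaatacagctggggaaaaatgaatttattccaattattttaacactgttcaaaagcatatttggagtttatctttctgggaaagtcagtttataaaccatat
Strong, between genes with COL6A3 as the nearest coding start chr2:238172514-238172713: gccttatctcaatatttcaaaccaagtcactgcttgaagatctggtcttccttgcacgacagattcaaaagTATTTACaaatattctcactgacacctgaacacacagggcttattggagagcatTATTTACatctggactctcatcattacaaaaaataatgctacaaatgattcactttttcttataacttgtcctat
Strong, KATNAL2 intron chr18:44604236-44604435: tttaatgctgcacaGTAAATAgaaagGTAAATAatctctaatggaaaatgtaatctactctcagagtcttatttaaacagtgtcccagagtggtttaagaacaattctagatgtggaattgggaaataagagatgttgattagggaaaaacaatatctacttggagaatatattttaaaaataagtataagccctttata
Weak, EIF4G3 intron chr1:21302372-21302571: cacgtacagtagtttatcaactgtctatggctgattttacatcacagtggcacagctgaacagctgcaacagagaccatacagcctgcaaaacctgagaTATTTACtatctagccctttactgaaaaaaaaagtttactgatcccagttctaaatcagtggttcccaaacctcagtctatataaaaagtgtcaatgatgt
Weak, between genes chr1:42588336-42588535: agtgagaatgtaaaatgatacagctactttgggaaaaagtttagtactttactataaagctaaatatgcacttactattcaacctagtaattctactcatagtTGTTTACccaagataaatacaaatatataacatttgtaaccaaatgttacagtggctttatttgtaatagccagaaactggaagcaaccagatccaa
Weak, THEM7P intron chr11:32260884-32261083: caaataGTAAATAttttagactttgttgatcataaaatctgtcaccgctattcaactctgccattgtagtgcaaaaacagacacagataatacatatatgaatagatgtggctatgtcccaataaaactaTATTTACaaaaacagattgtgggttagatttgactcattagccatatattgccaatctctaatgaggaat

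Of the isolated strong sites with the highest scores, 4 are described. The row chr3:73025667-73026375, with a score of 615, falls in an exon of GXYLT2, a xylosyltransferase that modifies Notch, and its window overlaps a UTR of that gene. It holds 1 forkhead core in a window of 24% GC. A second, chr2:32088626-32089136, scored 596 between genes and had a FOXA1rraa row 1460 bp away. Another, chr4:129918837-129919295 with a score of 595, lies 626 bp from the start of SCLT1, which encodes a protein of centriole appendages. The row chr16:30585824-30586221 with a score of 581, lies in an intron of the zinc-finger gene ZNF785, and its nearest other FOXA1 peak was 161443 bp away. Of these 4 sites, only the one at GXYLT2 held a forkhead core.

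Of the strong sites with a core, 3 of the 5 lay in introns, where 65.7% of all strong lost rows lay. In SPEN, a nuclear corepressor gene, the row chr1:16246780-16247236 scored 527 and stood 2320 bp from the nearest other-list row, which was a FOXA1dbd row. In KIFAP3, whose product links kinesin-2 to its cargo, chr1:169945351-169945878 scored 464, with a FOXA1rraa row 1789 bp away. The row chr2:238172226-238173002 scored 461 and holds 2 forkhead cores and 1 AP-1 core. Its closest protein-coding start is that of COL6A3, a collagen VI gene, 66209 bp away. In KATNAL2, which encodes a katanin-like protein, chr18:44604158-44604514 scored 458 and holds 2 cores of the same letters. The 3 weak sites, each with a score of 146, are chr1:21302320-21302624 in the translation factor gene EIF4G3, chr1:42588316-42588555 between genes, and chr11:32260820-32261147 in an intron of the pseudogene THEM7P with 2 forkhead cores and 1 AP-1 core. These windows show that a lost site can hold a perfect core, or more than 1, and still be absent from the other lists.

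Lost rows came from the low and narrow end of the FOXA1 list, which the rule's own values fix in part. Strong lost rows had a median score of 190 and a highest score of 1027, against a median of 230 and a highest of 1518 for strong kept rows. Their median width was 337 bp, against 465 bp for kept. Among weak rows the median score was 82 for lost and 93 for kept, and the median width 217 bp and 265 bp. From the lowest to the highest decile of FOXA1 rows by score, the share lost fell from 60.2% to 10.96%, and without the repeated FOXA1rraa rows from 68.9% to 22.5%. At the score that splits the classes, 109 of 273 rows scoring 146 were lost, as were 201 of 591 rows scoring 147.

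Width divided the strong rows further. In the narrowest quintile of strong rows 46.4% were lost (45.5 to 47.3), and in the widest quintile 7.01% (6.57 to 7.47). For weak rows the corresponding shares were 64.0% and 33.7%. The median score rose across the same quintiles of strong rows, from 180 to 269. The part of score in these shares of width was not tested.

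**Figure D1:**
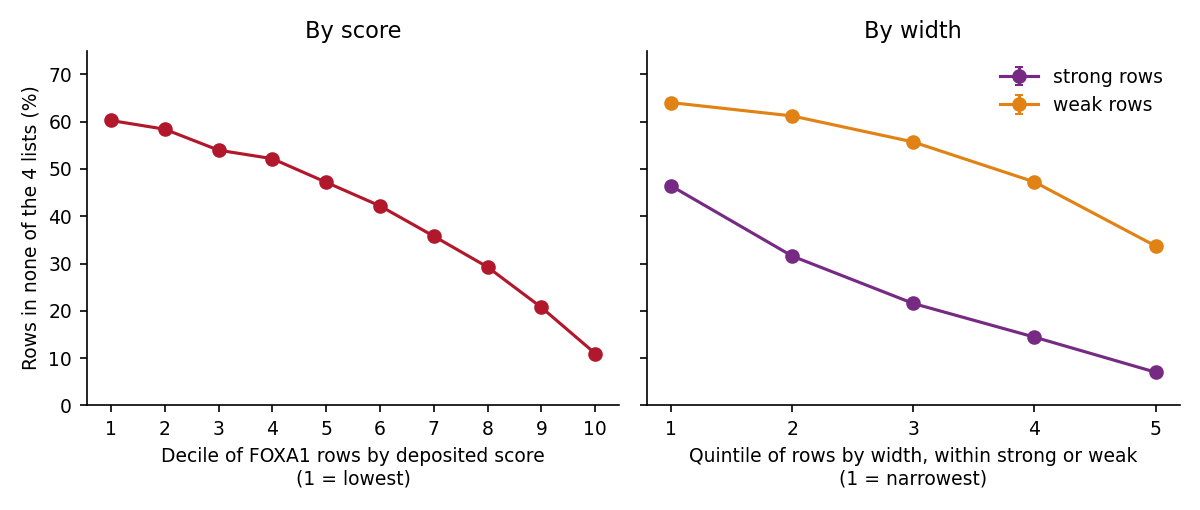
Share of FOXA1 rows found in none of the 4 other lists (vertical axes, %), by decile of the deposited score (left) and by quintile of row width within strong and weak rows (right). Points are shares with 95% Wilson intervals, most of them smaller than the point, and the share falls from 60.2% to 10.96% with score and from 46.4% to 7.01% with width in strong rows.

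Not every lost row is a separate place on the genome. Some peak names of the FOXA1 list stand on several rows, here called pieces. How they arose is not given in the sources used here, and whether stretches between them were removed was not tested. Of strong lost rows 1375 (9.11%) share their name with a piece that is overlapped by another list, as do 931 weak lost rows (1.91%). Among the 20 lost rows with the highest scores, 13 are such pieces and 15 have an other-list row within 1000 bp. At the top of the class by score, most rows thus belong to peaks that another list does overlap. Counted by peak name, with a peak lost only if none of its pieces is overlapped, 22.7% of strong and 52.0% of weak peaks were lost. Narrow fragments were few, since 198 strong and 1184 weak lost rows were under 50 bp wide.

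Many lost sites were near rows of the other lists without touching them. The median distance from a strong lost row to the nearest other-list row was 2529 bp, and from a weak one 2903 bp. Within 200 bp lay such a row for 6.85% of strong and 4.15% of weak lost rows, within 1000 bp for 28.2% and 23.8%, and within 10000 bp for 87.0% and 84.0%. The nearest neighbours were mostly rows of the longer lists. For strong lost rows the median distance was 4198 bp to FOXA1nhaa, 5955 bp to FOXA1rraa, 17901 bp to FOXA1dbd and 27700 bp to HNF4A. Where a FOXA1 row with any other-list row within 1000 bp is no longer called lost, 17.4% of strong and 39.9% of weak rows stay lost. The repeated FOXA1rraa rows are included in all these distances and in those of the named sites. A nearest FOXA1rraa row can therefore itself be a FOXA1 row, and distances without the repeated rows were not taken.

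The fate of the neighbouring FOXA1 peak moved little with that of the row itself. Strong rows were lost in 25.1% of cases (24.6 to 25.7) where the nearest other FOXA1 peak was lost, and in 23.5% (23.1 to 24.0) where it was not. For weak rows the shares were 54.4% (53.9 to 54.9) and 51.0% (50.6 to 51.4). Lost rows were also slightly more isolated within the FOXA1 list, with a median of 3251 bp from a strong lost row to the nearest other FOXA1 peak against 2929 bp for strong kept rows.

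Forkhead cores were present at lost sites, and at strong sites less often than at kept ones. The central 200 bp held TGTTTAC or TATTTAC on either strand in 16.5% of strong lost rows (2482 of 15086, 15.9 to 17.0) and in 19.7% of strong kept rows (19.3 to 20.02), a difference of 3.21 percentage points (2.51 to 3.89). Weak rows differed less, with 17.2% of lost (16.9 to 17.6) and 18.3% of kept (18.0 to 18.7), or 1.10 points (0.61 to 1.59). Without the FOXA1rraa rows that repeat FOXA1 rows, 18.6% of strong lost and 19.05% of strong kept rows held a core, so the strong difference shrank to 0.44 points (-0.19 to 1.07) and the weak one turned to -0.64 (-1.15 to -0.13). The forkhead difference between kept and lost sites thus rests on whether those repeated rows are counted.

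As a scale for these shares, every 200 bp tile of the genome without unknown bases was searched in the same way. A forkhead core was found in 7.29% of 14292991 tiles, whose mean GC content was 40.9%. FOXA1 rows are much poorer in GC, with a mean of 32.2% ± 4.73 (SD over rows) in strong lost windows and 32.9% ± 4.67 in strong kept windows. Between 30% and 35% GC, 11.3% of tiles held a core, against 16.3% of strong lost rows (15.4 to 17.2), 16.5% of weak lost rows (16.0 to 17.1) and 19.9% of strong kept rows (19.3 to 20.4) of the same GC content. Lost sites of both classes were thus above the genome at equal GC. Strong lost sites were below strong kept ones with the repeated FOXA1rraa rows counted as kept, and this was not examined at equal GC without them.

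Both forms of the core were less frequent at strong lost sites with the repeated FOXA1rraa rows counted as kept, as in the values that follow. Without those rows the forms were not counted apart, and together they differed by 0.44 points in strong rows (-0.19 to 1.07). TGTTTAC occurred in 6.09% of strong lost and 8.09% of strong kept windows, a difference of 2.002 points (1.54 to 2.45). TATTTAC occurred in 11.1% and 12.6%, a difference of 1.55 points (0.96 to 2.13). In weak rows TGTTTAC differed by 1.12 points (0.79 to 1.46), and for TATTTAC the interval of the difference spans 0 (-0.18 to 0.64). A pair or more of cores in the window was rare, in 1.78% of strong lost and 2.36% of strong kept rows.

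The position of the core within the row was much the same in both classes. Where a strong lost window held a core, its median distance from the row midpoint was 41 bp, against 43 bp in strong kept windows. Within 25 bp of the midpoint lay the core in 32.5% of those lost windows (30.7 to 34.4) and 31.3% of the kept ones (30.4 to 32.2). The FOXA1 list gives no summit, so these positions are relative to the middle of the row. In the central 100 bp a core was found in 9.35% of strong lost and 10.6% of strong kept rows, a difference of 1.28 points (0.74 to 1.82). The repeated FOXA1rraa rows are counted as kept in these values.

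The reversed letters of the core, CATTTGT and CATTTAT, have the same base composition and served as a comparison. They occurred in 20.8% of strong lost windows (20.2 to 21.5) and 19.5% of strong kept windows (19.2 to 19.9). That is the opposite order to the true core when the repeated FOXA1rraa rows are counted as kept. In weak rows the reversed letters occurred in 20.2% and 19.2%. Between 30% and 35% GC they were in 21.6% of strong lost rows (20.6 to 22.7) and 19.0% of genome tiles. The excess of lost windows over the genome was thus smaller for the reversed core than for the true core.

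AP-1 cores were the sequence of the set that separated lost from kept sites most. TGANTCA was found in 11.1% of strong lost windows (1669 of 15086, 10.6 to 11.6) and 16.3% of strong kept windows (16.0 to 16.6), a difference of 5.22 points (4.62 to 5.82). In weak rows it was in 12.7% of lost (12.4 to 13.0) and 17.2% of kept (16.9 to 17.6), a difference of 4.56 points (4.103 to 5.02). The order is the same without the repeated FOXA1rraa rows, where the differences were 5.57 points in strong and 5.28 in weak rows. Of all genome tiles 6.27% held the core, and 6.65% of those between 30% and 35% GC, against 11.5% of strong lost rows of that GC content (10.8 to 12.3). Lost sites were thus above the genome and below kept sites for AP-1 too.

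Most of that difference lay in the kept rows that FOXA1dbd overlaps. Of strong kept rows with a FOXA1dbd row, 23.2% (22.5 to 23.8) held an AP-1 core, and of those without one 12.8% (12.4 to 13.1), which is 1.71 points above the lost rows (1.08 to 2.33). For weak rows the shares were 26.6% and 14.1%, and the latter was 1.43 points above lost (0.96 to 1.91). With the repeated FOXA1rraa rows counted as kept, forkhead cores followed the same order. They were in 21.7% of strong kept rows with FOXA1dbd and 18.6% of those without, the latter 2.17 points above lost (1.43 to 2.90). Among weak kept rows without FOXA1dbd, 17.6% held a forkhead core, and the interval of the difference from lost rows spans 0 (-0.13 to 0.93). Without the repeated rows a forkhead core was in 18.6% of strong lost and 19.05% of all strong kept rows. For weak rows these shares were 18.0% and 17.3%. Kept rows with FOXA1dbd are the same rows in both settings, and 3459 of 15952 strong and 2247 of 11003 weak ones held a core. Of all kept rows without the repeated rows, 7352 of 38594 strong and 5933 of 34233 weak ones held a core. The remaining kept rows, without FOXA1dbd, thus held a core less often than lost rows in both classes. Their forkhead excess over lost rows is therefore found only with the repeated rows counted as kept.

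TEAD cores gave a smaller difference in the same direction. GGAATG, or its other strand, was in 10.8% of strong lost and 12.4% of strong kept windows, a difference of 1.57 points (0.98 to 2.14). In weak rows it was in 11.2% and 12.6%, a difference of 1.43 points (1.02 to 1.85). Without the repeated FOXA1rraa rows the shares were 11.02% and 12.6% in strong rows and 11.3% and 12.8% in weak rows. Windows with both a forkhead and an AP-1 core made up 1.38% of strong lost rows and 2.82% of strong kept rows. Among strong kept rows the share was 4.14% with FOXA1dbd and 2.15% without. The repeated FOXA1rraa rows are counted as kept in these shares and in those of the HNF4 core that follow. The HNF4 core CAAAGTCCA was in 0.265% of strong lost windows (40 rows) and 0.248% of strong kept windows, and the interval of that difference spans 0 (-0.12 to 0.07). The factors behind AP-1 and TEAD were not mapped in the lists analysed, and a match in a window is a stretch of letters, not a bound site.

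**Figure D2:**
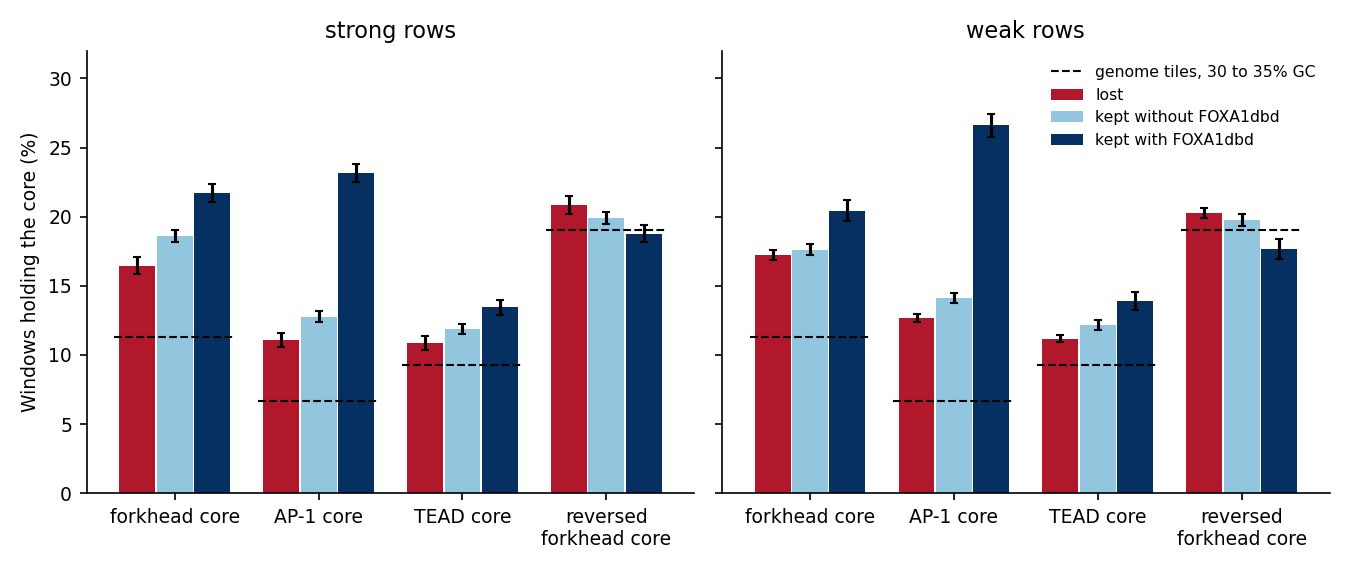
Share of central 200 bp windows holding each core (vertical axis, %) for strong rows (left) and weak rows (right), with lost rows in red, kept rows without a FOXA1dbd row in light blue and kept rows with one in dark blue. Error bars are 95% Wilson intervals over rows and dashed lines give genome tiles of 30 to 35% GC. The repeated FOXA1rraa rows are counted as kept here. AP-1 cores reach 23.2% and 26.6% in the kept rows with FOXA1dbd, against 11.1% and 12.7% in lost rows.

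AP-1 cores were less frequent in lost than in kept rows at the lowest and at the highest scores. In lost rows AP-1 cores were in 12.7% of the lowest decile by score (12.1 to 13.4) and 8.56% of the highest decile, while in kept rows they were in 17.7% and 15.3%. Forkhead cores went from 17.2% to 15.8% in lost rows (16.5 to 18.0 and 14.2 to 17.6) and from 17.2% to 20.6% in kept rows. Without the repeated FOXA1rraa rows the forkhead share of lost rows went the other way, from 17.7% (17.0 to 18.5) to 18.8% (17.5 to 20.1), and that of kept rows from 16.01% to 20.5%. The AP-1 shares under that setting were 13.1% and 9.69% in lost rows and 18.4% and 15.99% in kept rows. The fall of forkhead cores with score in lost rows is thus not found without the repeated rows, whereas that of AP-1 cores is. With the repeated rows counted as kept, the kept minus lost difference within quintiles of the score was 2.91 points for forkhead and 5.51 for AP-1 among strong rows. It was not taken within quintiles without them.

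**Figure D3:**
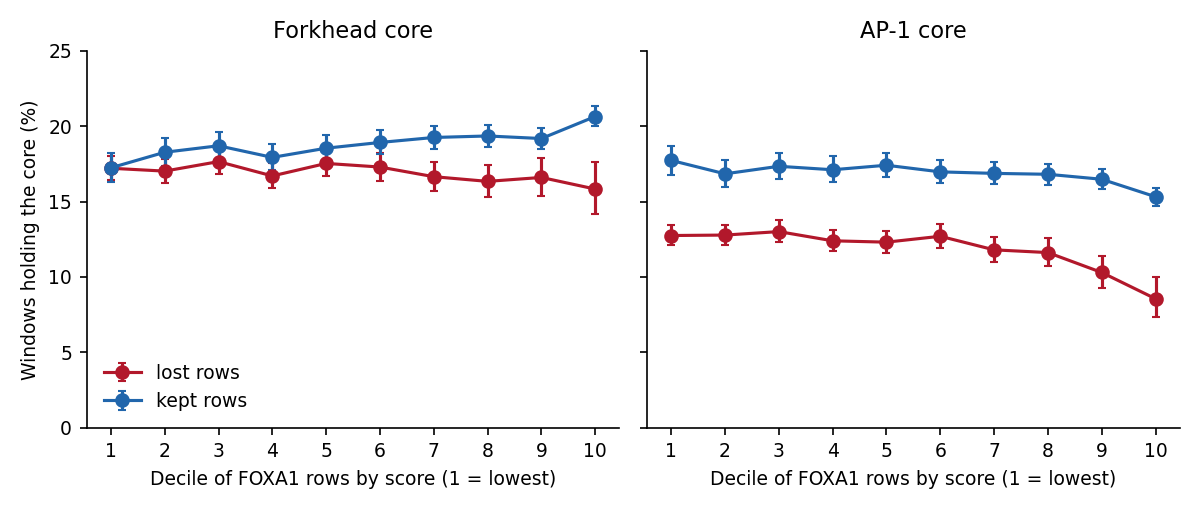
Share of windows holding a forkhead core (left) or an AP-1 core (right), vertical axis in %, by decile of the FOXA1 list by score, for lost rows (red) and kept rows (blue) with 95% Wilson intervals. The repeated FOXA1rraa rows are counted as kept here. The forkhead shares start together at 17.2% and reach 15.8% and 20.6%, against 18.8% and 20.5% in the highest decile without those rows, and the AP-1 share of lost rows is below that of kept rows in every decile and falls to 8.56%.

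Lost sites were spread over the genome much as kept sites were, somewhat more often between genes. Introns held 65.7% of strong lost and 65.8% of strong kept rows, and the interval of the difference spans 0 (-0.80 to 0.94). Between genes lay 21.6% of strong lost rows (20.9 to 22.3) and 19.0% of strong kept rows, a kept minus lost difference of -2.60 points (-3.36 to -1.86). These shares were 21.2% and 18.7% without the repeated FOXA1rraa rows. In weak rows 23.7% and 21.2% lay between genes. A transcription start within 1000 bp was found for 8.42% of strong lost rows (1270) and 9.27% of strong kept rows, a difference of 0.85 points (0.33 to 1.36). For weak rows the shares were 8.14% and 9.24%, 1.10 points apart (0.73 to 1.46). Coding sequence held 109 strong lost rows (0.723%), and the median distance to the nearest start was 9606 bp for strong lost and 9104 bp for strong kept rows.

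Of the isolated strong lost rows, 439 of 9811 lay within 1000 bp of the start of a protein-coding gene. The 3 with the highest scores, picked after the values were seen, lie at SCLT1, CYLD and OCIAD2. At CYLD, a deubiquitinase gene of NF-kappaB signalling, chr16:50783089-50783415 scored 514 at 208 bp from the start, in a window of 24.5% GC. At OCIAD2, chr4:48900102-48901118 scored 429 at 745 bp from the start. None of the 3 windows held a forkhead or an AP-1 core.

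The lost share was similar across chromosomes 1 to 22 and higher on X and Y. Among autosomes it ran from 21.7% on chromosome 13 to 28.5% on chromosome 19 for strong rows, with a median of 24.1%. For weak rows it ran from 50.7% on chromosome 13 to 56.8% on chromosome 19. On X, 119 of 336 strong rows (35.4%, 30.5 to 40.7) and 1328 of 1886 weak rows (70.4%, 68.3 to 72.4) were lost. On Y, 10 of 28 strong rows (35.7%, 20.7 to 54.2) and 114 of 155 weak rows (73.5%, 66.1 to 79.9) were. Without the repeated FOXA1rraa rows the X share was 61.9% of strong rows (56.6 to 66.9) and 84.04% of weak rows, against 37.7% and 62.2% on the autosomes together. X also had fewer rows in each list and lower scores, with a median score of 90 for FOXA1 rows there against 124 in the whole list. Rows per Mb on X, relative to the autosomes, came to 0.269 for FOXA1, 0.202 for HNF4A, 0.188 for FOXA1rraa, 0.136 for FOXA1nhaa and 0.0718 for FOXA1dbd. The thinning on X was thus greater in each list that defines the loss than in the FOXA1 list, and its part in the lost share was not tested.

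**Figure D4:**
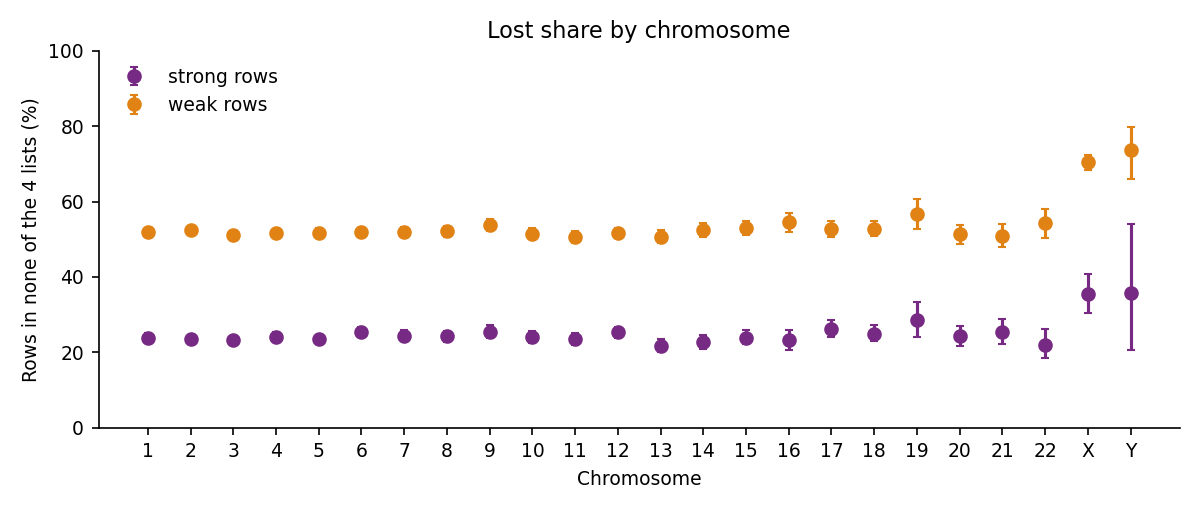
Share of strong (purple) and weak (orange) FOXA1 rows in none of the 4 other lists (vertical axis, %) on chromosomes 1 to 22, X and Y, with 95% Wilson intervals. Autosomes lie between 21.7% and 28.5% for strong rows and 50.7% and 56.8% for weak rows, and X lies above them at 35.4% and 70.4%, with Y at 35.7% and 73.5% on few rows.

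The share of lost sites was also taken by gene. Rows were assigned to a gene by a centre in its body or within 10 kb on either side, so a row can count for several genes. Of 20149 protein-coding genes, 13661 had a FOXA1 row, 10981 a lost row and 5903 a strong lost row. In 1926 of the 13661 genes with a FOXA1 row every such row was lost, beside 41.1% of all FOXA1 rows. Each of these 1926 genes had fewer than 20 rows. The 1792 genes with at least 20 rows had a median of 38.1% lost, with lower and upper deciles of 25.7% and 51.9% and extremes of 4.55% and 91.3%.

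The genes with the most strong lost rows were long and had many strong rows, so their counts are given with those totals, beside the 24.2% lost of all strong rows. NEGR1, a cell adhesion protein of the neuronal surface, had 36 of 109 strong rows lost, and 166 of its 320 rows were lost in all (51.9%, 46.4 to 57.3). It also had 35.3 FOXA1 rows per 100 kb of gene body and flanks, the densest of these 10 genes. NAALADL2 followed with 29 of 81, then GRIK2, a kainate receptor subunit, with 23 of 69. DPYD, the first enzyme of pyrimidine breakdown, and RBMS3, an RNA-binding protein, had 20 of 81 and 20 of 87. PRKG1, a cGMP-dependent kinase, and ROBO1, a receptor for SLIT guidance cues, had 18 of 82 and 18 of 69. VPS13B had 17 of 84, MAGI2 17 of 75 and TBC1D5 17 of 76. Of these 10 genes, NEGR1 had the highest share of its rows lost and TBC1D5 the lowest, 34.0% (26.9 to 41.9). With the repeated FOXA1rraa rows set aside, NEGR1 had 56 strong lost rows and RBMS3, the next of these 10 genes, 40.

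Among genes with at least 20 rows, the highest and lowest shares lost each rest on few rows. FRMPD4, a scaffold protein of synapses on X, had 21 of 23 rows lost, and all 23 were weak. ZNF804A, a zinc-finger gene, had 25 of 29 lost, the 4 strong rows among them. The gene ENSG00000250349 on X had 40 of 50 lost and CASK, a membrane-associated scaffold kinase on X, 19 of 25. ABCB1, the drug efflux pump P-glycoprotein, had 15 of 20 lost, including 5 of its 7 strong rows. Of these 5 genes 3 lie on X, where the lost share was higher in both score classes. At the other end, ACSL3, a fatty acid activating enzyme, had 1 of 22 rows lost, and DHX15, an RNA helicase of splicing, 2 of 23. CTTNBP2NL and PARVA, an adhesion protein that links integrins to actin, had 2 of 20 each, and CCSER2 had 4 of 37. Each of these 5 genes had more strong than weak rows. Without the repeated FOXA1rraa rows ACSL3 had 7 of 22 rows lost and DHX15 8 of 23, whereas FRMPD4 had 22 of 23 and ZNF804A 26 of 29.

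Lists of genes by role put these shares in context. They are given beside the 41.1% of all FOXA1 rows, and rows of 1 gene are not independent of each other. Steroid hormone response genes, classic FOXA1 targets in breast and prostate, had 46 of 85 rows lost (54.1%, 43.6 to 64.3), of which 7 of 23 strong (30.4%, 15.6 to 50.9) and 39 of 62 weak (62.9%, 50.5 to 73.8). Both class intervals contain the share of all FOXA1 rows of that class, 24.2% and 52.4%, and weak rows make up 62 of the 85. In ESR1, the oestrogen receptor gene, 12 of 25 were lost, in FKBP5, a glucocorticoid-induced chaperone gene, 11 of 19, and in BCL2, a survival gene, 6 of 10. No row was found at TFF1, GATA3, CCND1 or ZBTB16. The list's median gene lost 58.9% of its rows, over 10 genes with rows.

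Liver genes come from the tissue in which FOXA factors are best known. Of 24 genes 14 had a row, beside 13661 of 20149 protein-coding genes, and 21 of 57 rows were lost (36.8%, 25.5 to 49.8). CPS1, a urea cycle enzyme, lost 5 of 16, AFP, fetal albumin's relative alpha-fetoprotein, 3 of 9, FGB, a fibrinogen chain, 2 of 9, and ALB, albumin, 5 of 7. Strong rows of this list were lost in 4 of 21 cases (19.05%, 7.67 to 40), and the interval contains the 24.2% of all strong FOXA1 rows.

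Fibroblast matrix and surface genes had a smaller share of lost rows, 109 of 327 (33.3%, 28.4 to 38.6). By score class it was 33 of 154 strong rows (21.4%, 15.7 to 28.6) and 76 of 173 weak rows (43.9%, 36.8 to 51.4). COL5A2, a collagen V chain, lost 32 of 83, FBN1, fibrillin of elastic microfibrils, 20 of 61, COL3A1, a collagen III chain, 11 of 32, and DCN, the proteoglycan decorin, 8 of 20. LOX, which cross-links collagen, lost 1 of 12, and the receptor gene PDGFRA 5 of 7. The interval of the weak rows lies below the 52.4% of all weak rows, and that of the strong rows contains the 24.2% of all strong rows.

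Fibroblast transcription factor genes lost 103 of 268 rows (38.4%, 32.8 to 44.4). RUNX1 lost 45 of 110, TEAD1 19 of 54, RUNX2 23 of 45, and TWIST1, a mesenchymal regulator, 5 of 20, while SNAI2, another such regulator, lost none of 9. Neuronal adhesion and synapse genes, many of which are long, lost 289 of 666 (43.4%, 39.7 to 47.2). MAGI2 lost 73 of 184, LRP1B 54 of 100, LSAMP 32 of 78 and ROBO2 14 of 55. The intervals of these lists and of the liver genes contain the 41.1% of all FOXA1 rows, that of the steroid list, with its many weak rows, lies above it and that of the matrix list below it. Without the repeated FOXA1rraa rows the steroid list had 54 of 85 rows lost (63.5%, 52.9 to 73.0), the liver list 32 of 57 (56.1%, 43.3 to 68.2) and the matrix list 135 of 327 (41.3%, 36.1 to 46.7). Beside the 52.7% of all FOXA1 rows under that setting, the steroid and matrix lists kept their order. The lower bound of the steroid interval was close to the share of all rows. The liver list moved from below to above that share, with an interval that contains it in both settings. By class, the steroid intervals (strong 25.6 to 63.2, weak 58.7 to 80.8) again contain the 37.8% and 62.7% of all rows. Those of the matrix list (22.6 to 36.8 and 44.6 to 59.3) lie below them.

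**Figure D5:**
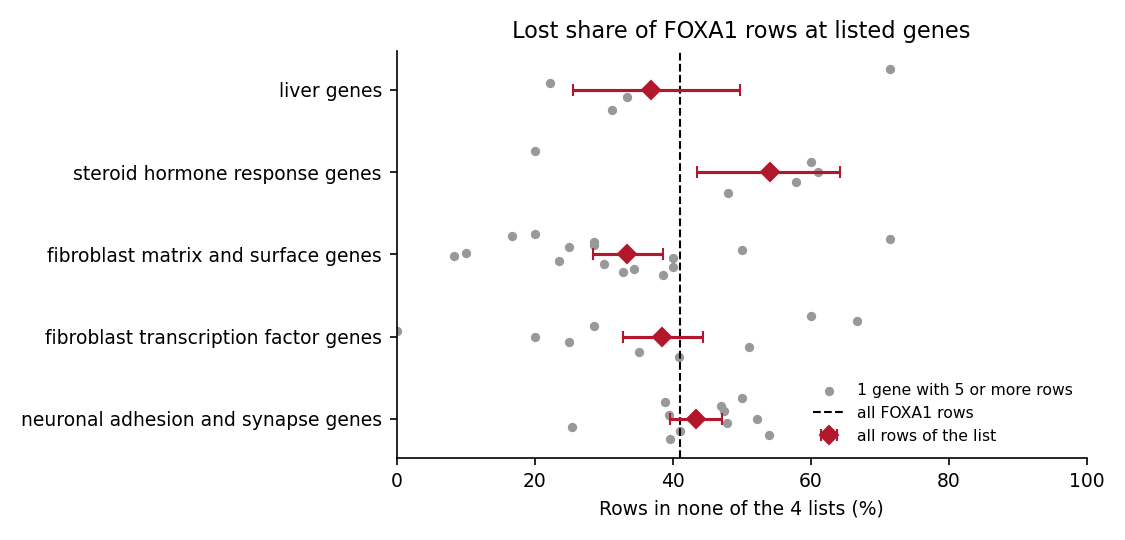
Share of FOXA1 rows in none of the 4 other lists (horizontal axis, %) at 5 gene lists, with red diamonds for all rows of a list and 95% Wilson intervals over rows. Grey points are single genes with 5 or more rows and the dashed line is the 41.1% of all FOXA1 rows. The steroid hormone list, in which 62 of 85 rows are weak, lies above the line at 54.1%, while its intervals within score classes contain the shares of all rows, and the matrix list lies below it at 33.3%.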

How the data were processed

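The build hg19 and the tools Bowtie2 2.3.4.1, Picard, GATK 4.2.6.0, bedtools 2.27.1, MACS2 2.2.7.1 and deepTools 3.5.0 are named, without roles, per the submitters' processing notes. The deposited lists give for each row a position, a name and a score made by the authors' peak caller, and nothing states whether libraries were pooled. The score was used only to split and rank rows within the FOXA1 list. Read depth is not in the lists, so precision beyond counting error is unknown.

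Rows were called overlapping from 1 shared base pair. Cores were searched on both strands, without mismatch, in the central 200 bp around the row midpoint in GRCh37. Genes and transcription starts came from GENCODE 44 lifted to GRCh37. A row belonged to a start within 1000 bp, then to an exon, an intron or the space between genes. The suffix that numbers pieces was removed from FOXA1 peak names. Tiles were successive 200 bp stretches of chromosomes 1 to 22, X and Y. Shares have Wilson and differences Newcombe intervals. Python 3.11.15, numpy 2.4.6, pandas 2.3.3 and pysam 0.24.0 were used, and the code was tested on simulated rows and planted cores.

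The lost rows, the cores and the gene lists were chosen with earlier results of these data known. Named sites were the 5 strong rows with the highest score, the 5 with a forkhead core and the 3 weak rows with a core, all isolated as described. Named genes were the 10 with the most strong lost rows and, among protein-coding genes with 20 or more rows, the 5 with the highest and the 5 with the lowest share lost, and in each list those with the most rows, to which LOX, PDGFRA and SNAI2 were added after their values were seen. A site and a gene that these rules name are not reported here. The H2B samples were not analysed here.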

Additional observations from a re-analysis of the deposited data

How the results depend on the processing

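For strong rows (24.2%) the lost share was 25.9% with an overlap of 50% of the shorter row, 31.3% by row centres within 200 bp, 17.4% where any other-list row within 1000 bp counts, 22.7% by peak name, 37.8% without the repeated FOXA1rraa rows, 43.5% with the top 50% of each other list by score, 47.1% with all other lists cut to the length of the shortest, and 22.8% for rows of at least 200 bp. For weak rows (52.4%) the same settings gave 54.7%, 56.4%, 39.9%, 52.0%, 62.7%, 75.4%, 78.5% and 46.8%, and it was 52.9% without HNF4A and 52.0% on chromosomes 1 to 22. Weak rows were lost more often than strong rows in every one of these settings. The kept minus lost difference in forkhead cores was 0.443 points (strong) and -0.643 (weak) without the repeated FOXA1rraa rows, 1.28 and 0.556 in the central 100 bp, and 2.17 and 0.401 without the FOXA1dbd rows. With the reversed core it was -1.34 and -1, and for weak rows within quintiles of GC content 1.69. For AP-1 it was 4.34 and 3.09 with rows within 1000 bp counted, and 1.71 and 1.43 without the FOXA1dbd rows, and for weak rows 5.28 without the repeated FOXA1rraa rows and 3.75 within quintiles of GC content. For starts within 2500 bp of weak rows it was 1.49. The cause of these shifts was not tested. The AP-1 alternatives, the FOXA1dbd and GC settings, the genome tiles and the further values without repeated FOXA1rraa rows were chosen after seeing the data. The other 30 alternative values stayed within the interval of the reported value, as did the 10 for the gene lists, where rows were taken from gene bodies alone or by peak name.

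No paired analysis was possible because there is 1 list per construct and its rows carry no replicate number. Leaving out a replicate was not done for want of replicate lists. Unknown read depth limits any statement that a site is unbound rather than not called.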

Other observations

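All words of 7 bases, each counted with its other strand, were compared between lost and kept windows after the data were seen. The repeated FOXA1rraa rows are counted as kept here, and the words were not counted without them. In strong rows the word with the largest excess in kept windows was TGACTCA, 1 of the forms of the AP-1 core, at 5.19% of lost and 8.85% of kept windows. It also led in weak rows, at 6.26% and 9.84%. ATACACA came next in both classes, at 11.7% of strong lost and 15.1% of strong kept windows and at 11.3% and 14.3% of weak ones. Other words of alternating purine and pyrimidine followed, such as ACACACA at 9.98% of strong lost and 12.9% of strong kept windows. ACAAACA was in 9.79% of strong lost and 12.2% of strong kept windows. The 5 words with the largest excess in lost windows of each class held no GC base pair. AAAATAT led in both classes, at 28.1% of strong lost and 23.2% of strong kept windows and at 28.0% and 21.5% of weak ones. Mean GC content was lower in lost windows in both classes, 32.2% against 32.9% for strong rows and 32.3% against 33.3% for weak rows, and its part in these words was not tested.

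Windows without a CG dinucleotide, the site of DNA methylation, were slightly more frequent in strong lost rows (49.0%, 48.2 to 49.8) than in strong kept rows (47.4%, 46.9 to 47.9), with a kept minus lost difference of -1.59 points (-2.50 to -0.67). Against strong kept rows without FOXA1dbd, at 48.9%, the interval of the difference spans 0 (-1.04 to 0.90). In weak rows the shares were 48.3% of lost and 45.5% of kept. These values too count the repeated FOXA1rraa rows as kept and were not taken without them.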
